A study of Saccharomyces cerevisiae with 72 samples.

Results

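The genes described here are 52 genes of amino acid synthesis in budding yeast, outside the arginine and sulfur routes, with GCN4, the gene of their common activator. They were chosen by gene symbol and sorted into 10 pathways, with GCN4 apart. HIS3 and LEU2 were left out because the BY4741 strain background lacks them. All 52 stand in both deposited tables, among 5594 genes in one and 5592 in the other, and each is read by 1 probe.

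Each array set RNA of a strain treated with methyl methanesulfonate (MMS, an alkylating agent that methylates DNA bases) against RNA of the same strain left untreated. Cultures grew at 30 °C to an optical density of 0.8 to 1.0 and were split, and 1 portion received MMS for 1 h. The labels give 0.03% MMS for growth, while the treatment text gives 0.033% for the first set below and 0.03% for the second. All strains are of the BY4741 background, and each strain has 4 arrays, as 2 replicates of 2 arrays with opposite dyes.

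The kinase set (poly(A)-enriched RNA) holds 13 strains. They are the wild type (wt), and strains lacking SML1 (an inhibitor of ribonucleotide reductase), MEC1 or TEL1 (the kinases that sense DNA damage), RAD53 or CHK1 (the kinases they activate), DUN1 (a kinase below Rad53), TEL1 and MEC1, CHK1 and RAD53, DUN1 and RAD53, CHK1 and DUN1, CRT1 (RFX1, a repressor of the ribonucleotide reductase genes) or STE11 (a kinase of the pheromone pathway). The factor set (total RNA, on another array design and with no wild type) holds 5 strains, which lack the transcription factor genes HAP1, HAP4, SUT1, RCS1 (AFT1) or YAP7. Strains are called by their labels (rad53, tel1mec1 and so on). The labels do not say whether the strains without MEC1 or RAD53 also lack SML1, which limits what their comparison with the wild type isolates. Whether replicates came from different cultures is not said either, and a p-value therefore covers only the spread between these samples, which may be technical.

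Yeast makes every protein amino acid from central carbon intermediates and ammonium, which glutamate and glutamine carry into most of the routes. When amino acids run short, uncharged tRNA activates the kinase Gcn2, and translation of the GCN4 message rises while that of most messages falls. The Gcn4 protein then activates genes in most of these routes at once, so its activity can rise with no change in the level of its own message. Single routes have regulators besides Gcn4, such as Lys14 for lysine, and end products inhibit the first enzymes of many routes.

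The value per gene is log2 of MMS over untreated, so a value of 1 is a 2-fold rise. It is a ratio within a strain and gives no level of a message, and array medians were near 0, so it is relative to the other genes of the array. In a culture, fewer cells with a message and less message per cell cannot be told apart. Where 4 array values are given, they are replicate 1 with MMS in Cy5, replicate 1 with MMS in Cy3, then replicate 2 in the same order. The mean and its SD are over the 2 replicates, after averaging each pair of opposite dyes. A gene is called where limma's adjusted p (Benjamini-Hochberg over all genes of the table) is under 0.05. "Rose" and "fell" are used of called genes, and a standard error (SE) is that of the fit. The median half-width of a 95% interval over all genes in the kinase set was 0.197 for responses, and 0.279 for differences between strains. The factor set had 0.153 and 0.171, where a difference is from the mean of the other 4 strains.

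Some arrays stood apart. One array went against its label: the Cy5-MMS array of dun1 replicate 2 gave DUN1 at 2.71, where the strain's remaining 3 arrays lay between -0.24 and -0.11. MEC1 stood at -2.34 there, and the remaining 51 arrays of the kinase set spanned -0.75 to 0.30. The spread (SD) across genes was 0.197 on the Cy3-MMS array of chk1rad53 replicate 1, and 0.365 to 0.413 on the remaining arrays of chk1rad53. The array of mec1, replicate 1 with MMS in Cy5, was left out together with these because an earlier analysis of these data did so; its mean correlation with the other mec1 arrays, 0.786, lay within the range of those arrays, 0.781 to 0.841. Without these 3 arrays the count of called members went from 28 to 21 in mec1, from 20 to 22 in dun1 and from 16 to 19 in chk1rad53, and from 2 to 3 for chk1rad53 minus wild type. It stayed at 0 for mec1 and for dun1 minus wild type, at 1 for tel1mec1 minus mec1 and at 2 for mec1 minus rad53.

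In the wild type, 29 of the 52 members were called after MMS, 19 higher and 10 lower. Of all genes of the kinase set, 52.1% were called, 26.8% higher and 25.4% lower, so the members' share called either way was near that of all genes and the members leaned towards rises. The members' median was 0.13, that of all genes 0.00033, and 2 of the called members changed at least 2-fold. The largest rises were those of LYS1, ARO1, ARO3, HOM3 and LYS20, and the largest falls were those of LYS4, GDH1 and GLN1. Without replicate 1 the count was 16, 12 higher and 4 lower, and without replicate 2 it was 18, 10 higher and 8 lower, so the lean was smaller there. The calls of 9 members held under each of the 6 alternatives run for this response (ARO1, ARO3, ARO8, TRP5, LYS1, LYS4, ILV1, ASN2 and GDH1), and those of the other 20 were lost when 1 replicate was left out.

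**Figure D1:**
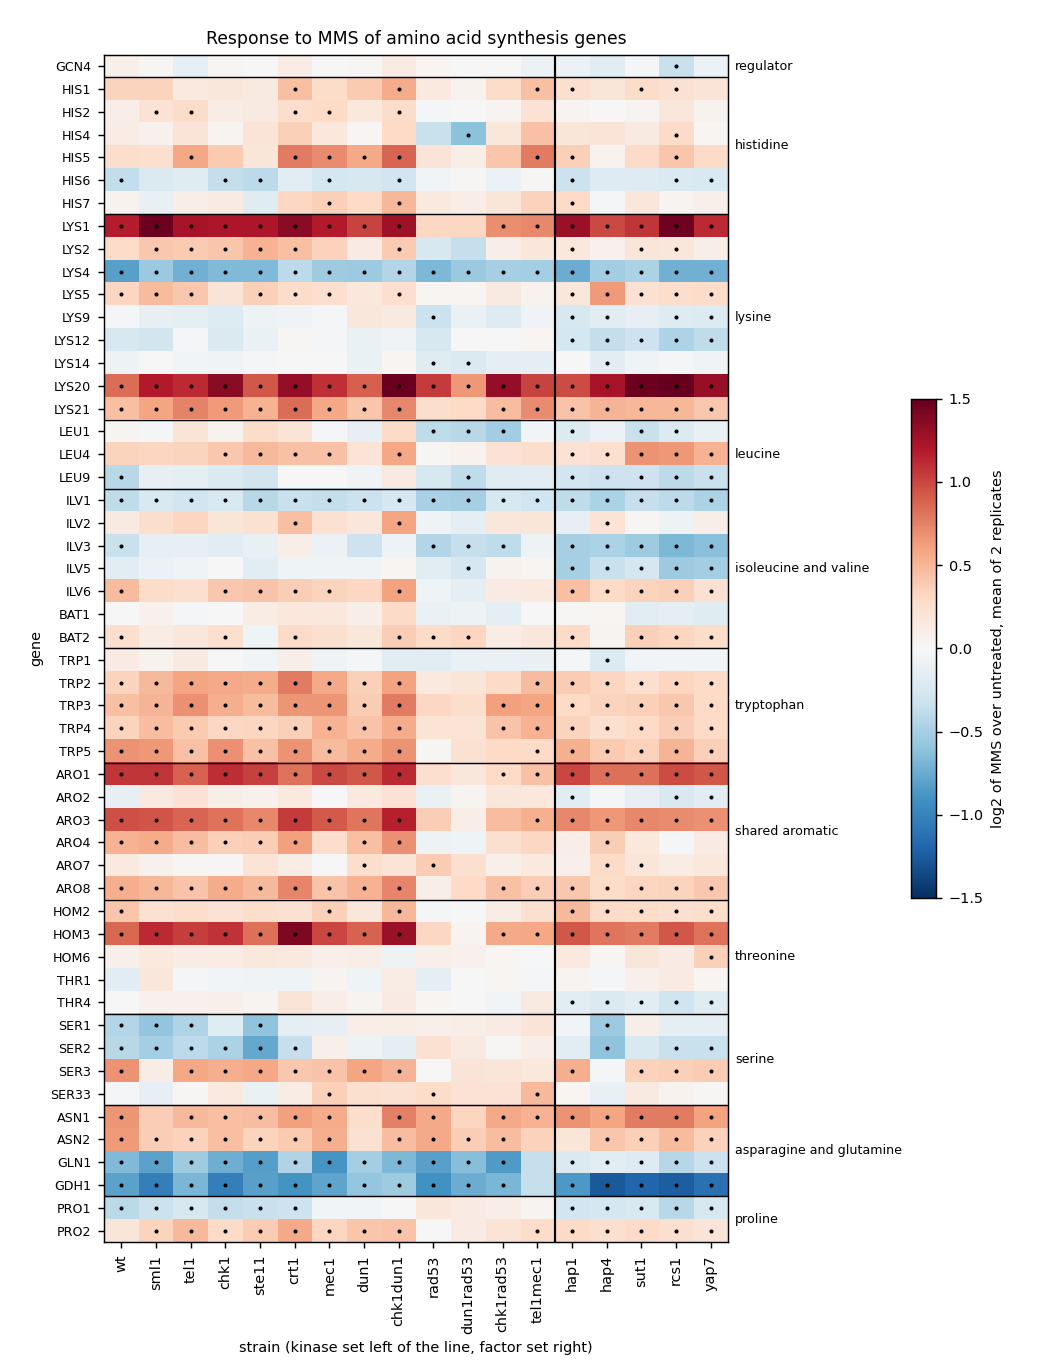
Response to MMS of the 52 genes (rows, by pathway) in the 18 strains (columns; kinase set left of the line, factor set right), as the mean of 2 replicates on the log2 scale, with a dot where the gene was called. The rows of LYS1, ARO1, ARO3 and HOM3 are red in most strains and paler in rad53, dun1rad53, chk1rad53 and tel1mec1. The row of LYS20 is red in all, and the rows of LYS4, GLN1, GDH1 and ILV1 are below 0 in all.

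The shared aromatic route leads from erythrose phosphate and phosphoenolpyruvate to chorismate. Its entry is catalysed by the DAHP synthases Aro3, inhibited by phenylalanine, and Aro4, inhibited by tyrosine, and Aro1 is a single multifunctional protein that carries out most of the steps after it. Of the 6 members, 4 rose in the wild type, none fell and the median was 0.53. ARO1 (YDR127W) gave 0.97, 1.47, 0.61 and 1.23 on the 4 arrays, a mean of 1.07 ± 0.21 (SD, n = 2), adjusted p 8.83e-08 (limma). Every array was above 0, and the rise was 2.1-fold. ARO3 (YDR035W) gave 1.13, 1.15, 0.57 and 1.04, a mean of 0.97 ± 0.24 (SD, n = 2), and ARO4 (YBR249C) gave 1.02, 0.13, 0.52 and 0.41, a mean of 0.52 ± 0.079 (SD, n = 2). Both stood above 0 on every array, with ARO3 the higher on each, but without replicate 1 ARO4 was no longer called (0.47, adjusted p 0.0544). ARO8, an aminotransferase that ends phenylalanine and tyrosine synthesis, rose to 0.55. ARO2, chorismate synthase, stood at -0.12 and ARO7, the chorismate mutase of the branch to phenylalanine and tyrosine, at 0.14, neither of them called.

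Over the 18 strains, 55.6% of the 108 pairs of 1 shared aromatic gene and 1 strain were called higher and 2.78% lower, against 24.3% and 21.3% of the pairs of all genes. ARO1 and ARO8 rose in 16 strains, ARO3 in 15 and ARO4 in 9. The exceptions for ARO1 and ARO8 were rad53 and dun1rad53. ARO4 rose in 8 of 13 strains of the kinase set and in 1 of 5 of the factor set, hap4, where it gave 0.37. ARO2 was called higher in no strain and lower in 3, all of the factor set.

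The branch from chorismate to tryptophan starts with anthranilate synthase, formed by Trp2 with Trp3, goes on through Trp4 and Trp1 and ends with tryptophan synthase, Trp5. Of its 5 members, 4 rose in the wild type and none fell. TRP5 (YGL026C) gave 0.58, 0.60, 0.81 and 0.72, a mean of 0.68 ± 0.12 (SD, n = 2), adjusted p 3.33e-05 (limma), all arrays within a narrow range above 0. TRP2 had a mean of 0.34, TRP3 of 0.45 and TRP4 of 0.33. Each of these lost its call without replicate 2 (TRP2 0.24, TRP3 0.43, TRP4 0.23), and TRP3 also without replicate 1 (0.47). The arrays of TRP3 gave -0.24, 1.09, 0.54 and 0.40, with opposite signs for the opposite dyes of replicate 1. TRP1, the isomerase in the middle of the branch, stood at 0.13 and was not called.

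Over the 18 strains tryptophan genes were called higher in 68.9% of 90 pairs and lower in 1.11%, the highest share of rises among the 10 pathways. TRP3 and TRP4 rose in 16 strains, and TRP2 and TRP5 in 15. TRP1 rose in none and fell in hap4 alone (-0.20), so the 4 other genes of the branch account for all its rises.

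**Figure D2:**
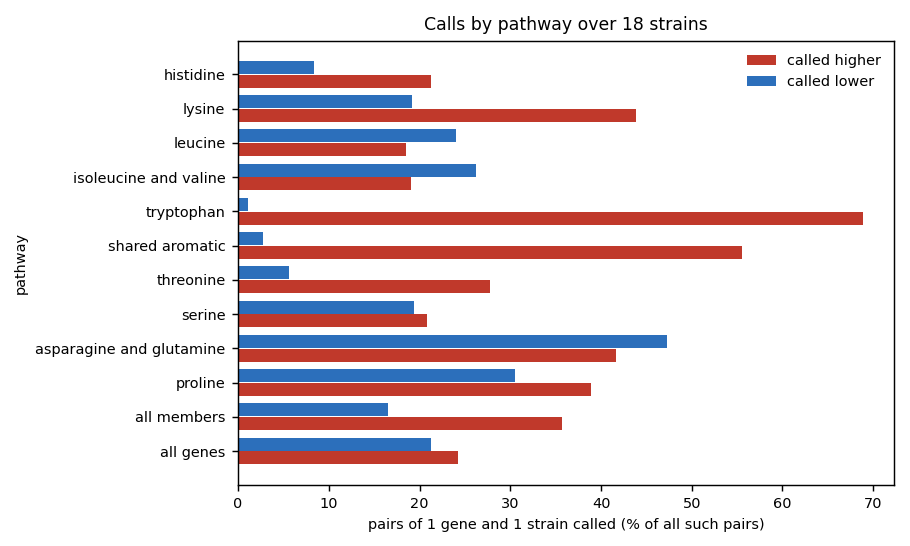
Share of pairs of 1 gene and 1 strain called higher (red) and lower (blue) over the 18 responses, for each pathway, for all 52 members and for all genes, in percent. Tryptophan and shared aromatic genes stand at 68.9% and 55.6% higher with 1.11% and 2.78% lower, asparagine and glutamine genes at 41.7% and 47.2%; GCN4 is not drawn.

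The lysine route of fungi condenses acetyl-CoA with ketoglutarate through homocitrate synthase, whose isozymes are Lys20 and Lys21. It continues through homoaconitase (Lys4) and homoisocitrate dehydrogenase (Lys12) to aminoadipate, which Lys2 reduces once Lys5 has activated the enzyme. Lys9 and Lys1 form and split saccharopine, and Lys1 releases lysine. Of the 9 members, 4 rose in the wild type (LYS1, LYS20, LYS21 and LYS5) and LYS4 fell.

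LYS1 (YIR034C) gave 1.25, 0.49, 1.55 and 1.40, a mean of 1.18 ± 0.43 (SD, n = 2), the highest of all 52 members in the wild type, adjusted p 6.59e-06 (limma). The Cy3 array of replicate 1 was the lowest, and all were above 0. LYS20 (YDL182W) gave 1.03, 0.34, 1.75 and 0.24, a mean of 0.84 ± 0.22 (SD, n = 2), with the Cy5 array above the Cy3 array in each replicate, so the size of its rise depends on the dye more than on the replicate. Without replicate 2 it was not called (0.69, adjusted p 0.08). LYS21 had a mean of 0.45 and LYS5 of 0.32; both lost their call without replicate 2 (0.32 and 0.23). LYS4 (YDR234W), the gene of the iron-sulfur enzyme that follows homocitrate synthase, gave -0.80, -0.87, -0.72 and -0.84, a mean of -0.81 ± 0.036 (SD, n = 2), the lowest of all 52. All its arrays were below 0 and it held its call under each alternative. LYS2 (0.28), LYS9 (-0.015), LYS12 (-0.24) and LYS14 (-0.075), which encodes the activator of the route, were not called.

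Neighbouring steps of the route thus had opposite values in the same cultures, and this was seen in every strain. LYS20 was called higher in all 18 strains, with means from 0.65 in dun1rad53 to 1.50 in rcs1, and was above 0 on 72 of 72 arrays. LYS4 was called lower in all 18, with means from -0.81 in the wild type to -0.39 in crt1. A single array of LYS4, crt1 replicate 2 with MMS in Cy5 (0.45), was above 0, and without crt1 replicate 1 LYS4 was not called in that strain (-0.23, adjusted p 0.0852). LYS20 lost its call without 1 replicate in 6 strains, namely wild type, rad53, dun1, tel1mec1, chk1rad53 (0.87 without replicate 2) and dun1rad53 (0.80 and 0.50 without replicate 1 and 2); in wild type it was the loss of replicate 2, in rad53 (0.83), dun1 (0.36) and tel1mec1 (0.74) that of replicate 1. LYS1 was above 0 on 72 of 72 arrays too, yet was not called in rad53 and dun1rad53. LYS2 rose in 9 strains and LYS5 in 12. LYS12 was called in no strain of the kinase set and fell in all 5 of the factor set, with means from -0.47 in rcs1 to -0.27 in hap1. Because the sets differ in RNA preparation and array design, that contrast between them cannot be told apart from the deleted genes and was not tested.

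**Figure D3:**
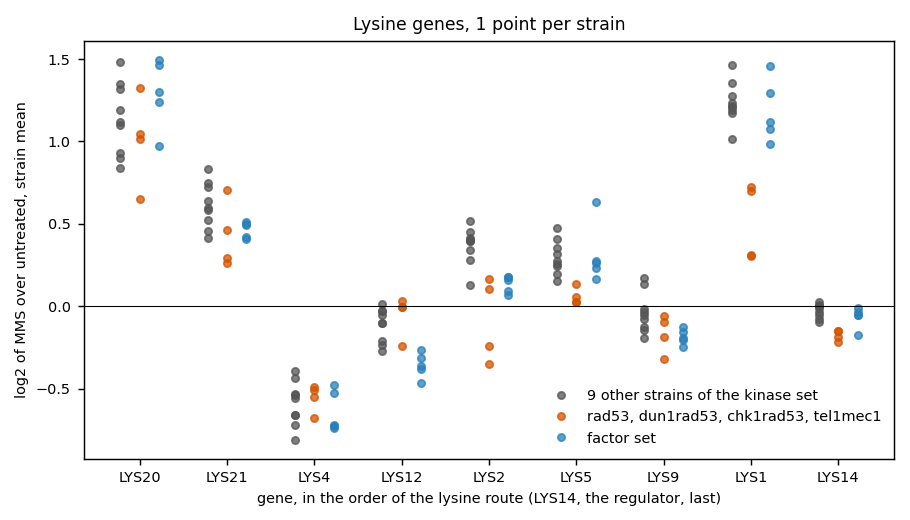
Strain means (log2 of MMS over untreated, vertical axis) of the 9 lysine genes in the order of the route, with LYS14 last; each point is 1 strain, grey for 9 strains of the kinase set, orange for rad53, dun1rad53, chk1rad53 and tel1mec1, blue for the factor set. LYS20 lies above 0.6 and LYS4 below -0.3 in every strain, and the orange points of LYS1, at 0.31 to 0.73, lie below all grey ones, at 1.01 to 1.46.

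Threonine is made from aspartate through aspartate kinase (Hom3), its semialdehyde dehydrogenase (Hom2), homoserine dehydrogenase (Hom6), homoserine kinase (Thr1) and threonine synthase (Thr4). HOM3 (YER052C), the entry of the route, gave 0.34, 0.95, 1.05 and 1.10 in the wild type, a mean of 0.86 ± 0.30 (SD, n = 2), all arrays above 0 and the Cy5 array of replicate 1 the lowest. Without replicate 2 it was not called (0.65, adjusted p 0.0715). HOM2 rose to 0.42, a call lost without either replicate (0.32 and 0.51), and HOM6 (0.076), THR1 (-0.16) and THR4 (0.01) were not called. Over strains, HOM3 rose in 16, up to 1.41 ± 0.011 (SD, n = 2) in crt1, where its arrays gave 1.61, 1.22, 1.35 and 1.45. THR1 was called in no strain, and THR4 in none of the kinase set but lower in all 5 strains of the factor set (-0.30 to -0.16). The rises among these members were thus those of HOM3 in 16 strains, HOM2 in 8 and HOM6 in yap7 alone. THR1 and THR4 rose in no strain.

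Serine arises from phosphoglycerate through the dehydrogenases Ser3 and Ser33, the aminotransferase Ser1 and the phosphatase Ser2. In the wild type SER3 (YER081W) rose while SER1 (YOR184W) and SER2 (YGR208W), the steps after it, fell. SER3 gave 0.23, 1.52, 0.43 and 0.52, a mean of 0.68 ± 0.29 (SD, n = 2), with the Cy3 array of replicate 1 far above the others. SER1 gave -0.77, -0.56, -0.31 and -0.11, a mean of -0.44 ± 0.32 (SD, n = 2), and SER2 gave -0.33, -0.76, -0.19 and -0.36, a mean of -0.41 ± 0.19 (SD, n = 2). All arrays of both were below 0 and none overlapped those of SER3. Without replicate 1 none of the 3 was called (SER3 0.47, SER1 -0.21, SER2 -0.28). SER3 rose in 12 strains and fell in none, SER2 fell in 9 and SER1 in 5. The lowest SER2 mean was in ste11, with -0.77, -0.54, -0.83 and -0.93 on the arrays and a mean of -0.77 ± 0.16 (SD, n = 2). SER33 (-0.021 in the wild type) rose in 3 strains, mec1, rad53 and tel1mec1.

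Histidine synthesis starts with His1, passes through His6 and His7, and ends with His5, His2 and the multifunctional His4, which also acts early in the route. In the wild type no member rose. HIS6 (YIL020C), an isomerase of the route, was called lower (-0.68, -0.43, 0.11 and -0.48 on the arrays, a mean of -0.37 ± 0.26 (SD, n = 2)), although the Cy5 array of replicate 2 was above 0 and without replicate 1 it was not called (-0.19). HIS5 (YIL116W), the histidinol phosphate aminotransferase, rose in 8 strains, highest in chk1dun1 with 0.94, 0.46, 1.06 and 1.01 and a mean of 0.87 ± 0.23 (SD, n = 2). Of all 52 members HIS4 (YCL030C) alone was called in opposite directions in different strains. In dun1rad53 it gave -0.36, -0.65, -0.61 and -0.84, a mean of -0.61 ± 0.16 (SD, n = 2), and in rcs1 0.53, 0.28, -0.15 and 0.47, a mean of 0.28 ± 0.18 (SD, n = 2). The arrays of dun1rad53 all lay below 0 and those of rcs1 did not lie on one side. Neither call held without 1 replicate: HIS4 gave -0.72 and -0.50 without dun1rad53 replicate 1 and 2, and 0.16 without rcs1 replicate 1.

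Isoleucine, valine and leucine share enzymes in the mitochondrion: acetolactate synthase (Ilv2 with its regulatory subunit Ilv6), the reductoisomerase Ilv5 and the dehydratase Ilv3. Threonine deaminase (Ilv1) opens the isoleucine branch, the isopropylmalate synthases Leu4 and Leu9 open that of leucine, Leu1 is the isopropylmalate isomerase, and the aminotransferases Bat1 (mitochondrial) and Bat2 (cytosolic) close all of them. ILV1 (YER086W) fell in all 18 strains, with means from -0.50 in dun1rad53 to -0.23 in sml1 and 1 of 72 arrays above 0. In the wild type it gave -0.83, -0.063, -0.20 and -0.42, a mean of -0.38 ± 0.10 (SD, n = 2), and it held its call under each alternative there. In 8 other strains (sml1, tel1, chk1, dun1, tel1mec1, chk1rad53, chk1dun1 and crt1) its call was lost without 1 replicate, with values from -0.32 to -0.089. ILV6 (YCL009C) gave 0.54, 0.58, 0.62 and 0.14 in the wild type, a mean of 0.47 ± 0.13 (SD, n = 2), above 0 on every array but not called without replicate 1 (0.38). It rose in 11 strains, and ILV2, its catalytic partner, in 3 (crt1, chk1dun1 and hap4).

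Other members of these branches fell or rose singly. ILV3 (YJR016C), an iron-sulfur enzyme, had a wild-type mean of -0.33 ± 0.0022 (SD, n = 2), a call lost without either replicate (-0.33 each), and fell in 9 strains, 4 of the kinase set and all 5 of the factor set. ILV5 fell in dun1rad53 (-0.26) and in the 5 factor strains (-0.54 to -0.25). LEU9 (YOR108W) gave -0.75, -0.093, -0.54 and -0.28 in the wild type, a mean of -0.41 ± 0.0083 (SD, n = 2), with every array below 0, and lost its call without either replicate (-0.41 and -0.42). LEU4 stood at 0.34 there, not called, and rose in 10 strains, up to 0.68 in sut1. BAT2 rose in 10 strains and BAT1 was called in none, with means from -0.18 to 0.29.

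Asparagine and glutamine genes formed opposite pairs. The asparagine synthetases rose: ASN1 (YPR145W) gave 0.63, 1.22, 0.62 and 0.18 in the wild type, a mean of 0.66 ± 0.37 (SD, n = 2), and ASN2 (YGR124W) gave 0.71, 0.78, 0.89 and 0.16, a mean of 0.63 ± 0.16 (SD, n = 2). ASN1 lost its call without replicate 1 (0.40), ASN2 did not. The enzymes that fix ammonium fell. GDH1 (YOR375C), the NADP-dependent glutamate dehydrogenase, gave -1.99, 0.63, -0.94 and -0.91, a mean of -0.80 ± 0.17 (SD, n = 2), and GLN1 (YPR035W), glutamine synthetase, gave -1.18, -0.48, -0.74 and -0.25, a mean of -0.66 ± 0.24 (SD, n = 2). The arrays of replicate 1 of GDH1 had opposite signs for the opposite dyes, whereas those of replicate 2 were nearly equal, and GLN1 was below 0 on every array but not called without replicate 1 (-0.49). Over the 18 strains ASN1 and ASN2 rose in 15 each and fell in none, and GDH1 and GLN1 fell in 17 each and rose in none; the exception for both was tel1mec1, at -0.35 and -0.35. In the factor set GDH1 had its lowest mean, -1.26 ± 0.24 (SD, n = 2) in hap4 from -1.06, -1.13, -1.53 and -1.34. GLN1 stood between -0.43 and -0.17 in the factor set (median -0.21) and between -0.88 and -0.35 in the kinase set (median -0.67). The ranges overlap, with rcs1 of the factor set at -0.43 and tel1mec1 of the kinase set at -0.35. The sets were not tested against each other.

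Proline is made from glutamate by the kinase Pro1 and the reductase Pro2. PRO1 (YDR300C) fell in the wild type, with -0.57, 0.089, -0.55 and -0.59 and a mean of -0.41 ± 0.24 (SD, n = 2), adjusted p 0.000645 (limma). The Cy3 array of replicate 1 was above 0 and the others lay close together, and without replicate 2 it was not called (-0.24). PRO2 stood at 0.18 there and was not called. Over the strains PRO1 fell in 11 and PRO2 rose in 14. GCN4 (YEL009C) itself was not called in any strain of the kinase set, with means from -0.12 in tel1 to 0.12 in chk1dun1, and gave -0.31, 0.38, 0.49 and -0.27 in the wild type, on both sides of 0. It fell in 1 of 18 strains, rcs1, to -0.34 ± 0.049 (SD, n = 2) with -0.49, -0.11, -0.27 and -0.47 on the arrays. These arrays carry messages only, so translation of GCN4 was not measured.

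Over all 18 strains the members were called higher in 334 of 936 pairs of 1 gene and 1 strain (35.7%) and lower in 155 (16.6%), against 24.3% and 21.3% for all genes. Of the 52 members, 30 were called higher in at least 1 strain and never lower, 19 lower and never higher, 1 both ways (HIS4) and 2 never (BAT1 and THR1). How many of all genes were called only 1 way, or in all 18 strains, was not counted. These counts therefore cannot show a trait particular to the members. In the other strains of the kinase set the members called higher and lower were as follows, with the percent of all genes called higher, lower and either way in brackets. sml1 had 17 and 7 (27%, 25.1% and 52.1%), mec1 had 23 and 5 (23.6%, 20.3% and 43.9%), tel1 had 20 and 7 (25.7%, 21.9% and 47.6%) and chk1 had 20 and 7 (26.2%, 23.2% and 49.4%). dun1 had 16 and 4 (21.8%, 18.1% and 39.9%), chk1dun1 had 27 and 5 (21.1%, 17.7% and 38.8%), crt1 had 25 and 6 (26.7%, 23.9% and 50.6%) and ste11 had 20 and 8 (28%, 23.5% and 51.5%). The remaining strains had fewer calls: rad53 had 6 and 8 (19.1%, 16.4% and 35.4%), dun1rad53 had 3 and 10 (19%, 15.3% and 34.3%), chk1rad53 had 10 and 6 (11.2%, 8.9% and 20.1%) and tel1mec1 had 16 and 2 (17.4%, 14.6% and 32%). In dun1rad53 the members called lower outnumbered those called higher, but with the arrays scaled to one spread 9 were higher and 10 lower, with the slide as a random block 7 and 11, and without the 3 arrays 6 and 10. In rad53 the members' median was 0.017, against 0.29 in chk1dun1. In tel1mec1 16 of the 18 calls were rises. All genes had fewer calls in the same 4 strains, and the members' shares called either way ran from 25% in dun1rad53 to 61.5% in chk1dun1.

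These counts depend on the replicates, since with 1 left out a strain keeps a lone sample that is assumed to vary like the other strains. The count fell by more than 1.5 times without replicate 1 in mec1 (13), tel1 (15), dun1 (9), hap1 (24), and without replicate 2 in ste11 (14), hap4 (20), sut1 (22) and yap7 (22). It did so without either replicate, 1 then 2, in rad53 (6 and 7), chk1 (14 and 15), tel1mec1 (2 and 10), dun1rad53 (4 and 2), chk1dun1 (20 and 16) and crt1 (19 and 16). In chk1rad53 it was 1 without replicate 2.

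Deletion strains were compared with the wild type to ask which responses need the kinases. All of these comparisons share the 4 wild-type arrays, so they are not independent, and each is given with its own values. In rad53 minus wild type 7 of 52 members were called, 5 lower and 2 higher, against 21.1% of all genes, 10.9% lower and 10.3% higher (13.5% of the members). The members' share was thus below that of all genes, and the members' median was -0.12 against 0.0085.

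The members lower in rad53 stand in 4 routes. ARO1 gave 0.15, 0.45, 0.011 and 0.40 in rad53, all below the lowest wild-type array (0.61), a difference of -0.81 ± 0.15 (SE), adjusted p 0.000669 (limma). LYS1 gave 0.20, 0.54, 0.37 and 0.12, a difference of -0.87 ± 0.23 (SE), adjusted p 0.00997; 1 rad53 array lay above the lowest wild-type array. In the same strain LYS20 gave 1.33, 1.18, 1.20 and 0.47 and was called higher, so the first and last steps of the lysine route had unlike values. TRP5 gave -0.028, 0.19, 0.025 and -0.12, close to 0 and below every wild-type array, a difference of -0.66 ± 0.15 (SE). SER3 gave -0.20, 0.051, 0.014 and 0.14 and ARO4 gave -0.041, 0.078, -0.13 and -0.20, differences of -0.67 ± 0.23 (SE) and -0.60 ± 0.18 (SE), with no overlap with the wild-type arrays. In sml1 the SER3 difference from the wild type was -0.57, not called. The labels do not say whether rad53 also lacks SML1, and rad53 was not tested against sml1.

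The members higher in rad53 are genes that fell in the wild type. PRO1 gave 0.22, 0.18, 0.15 and 0.12, all above 0 and above every wild-type array, a difference of 0.57 ± 0.12 (SE), adjusted p 0.00264 (limma). SER2 gave 0.31, 0.13, 0.46 and 0.041, also above every wild-type array, a difference of 0.64 ± 0.18 (SE). Under the 8 alternatives run for these differences, ARO1 kept its call in each. LYS1, ARO4 and SER3 lost theirs with the arrays scaled to one spread (adjusted p 0.158, 0.109 and 0.0892), where 4 members were called. Without rad53 replicate 2 there were 2. Leaving out 1 replicate ended the call of LYS1 (rad53 replicate 2 or wild-type replicate 2), TRP5 (the same), PRO1 (wild-type replicate 2), and SER2, SER3 and ARO4 (rad53 replicate 2 or wild-type replicate 1, among others). Over the alternatives LYS1 ran from -1.17 to -0.54, TRP5 from -0.74 to -0.48, SER3 from -0.88 to -0.47, ARO4 from -0.69 to -0.46, SER2 from 0.51 to 0.78 and PRO1 from 0.40 to 0.74, each keeping its sign. The rad53 arrays share no slide with the wild type, so a slide cannot be told apart from the strain in this comparison. Over all genes the SD of an array ran from 0.52 to 0.65 in the wild type and from 0.33 to 0.49 in rad53. It ran from 0.34 to 0.41 in dun1rad53 and from 0.34 to 0.42 in tel1mec1. Responses were thus smaller in size over all genes in these strains, not among the members alone.

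**Figure D4:**
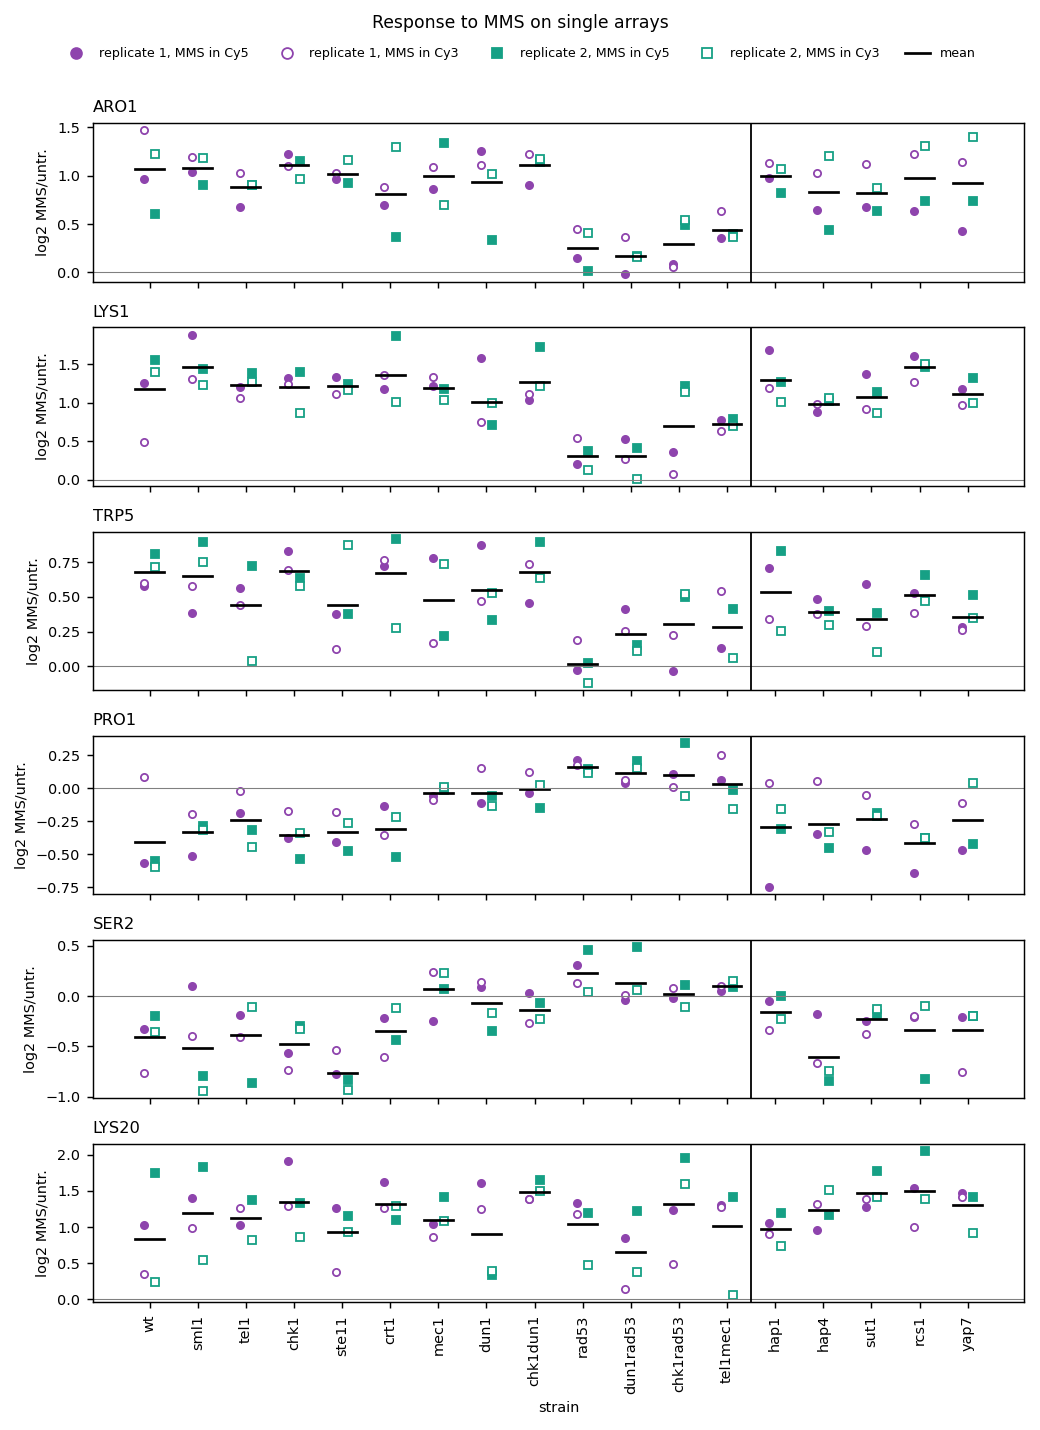
Single arrays (log2 of MMS over untreated, vertical axes) of ARO1, LYS1, TRP5, PRO1, SER2 and LYS20 in the 18 strains, with the strain mean as a bar; filled marks have MMS in Cy5, open marks in Cy3, circles are replicate 1 and squares replicate 2. ARO1 lies at or below 0.64 on every array of rad53, dun1rad53, chk1rad53 and tel1mec1, and LYS20 is above 0 on every array of all strains.

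In dun1rad53 minus wild type 9 of 52 members were called, 7 lower and 2 higher, against 16.1% of all genes, 8.54% lower and 7.58% higher (17.3% of the members). This share is near that of all genes. ARO1 gave -0.02, 0.37, 0.17 and 0.16, all below every wild-type array, a difference of -0.90 ± 0.15 (SE), adjusted p 0.000328 (limma). ARO3 gave 0.037, 0.18, 0.10 and 0.10, a difference of -0.87 ± 0.24 (SE), and ARO4 had -0.59. The gene of the multifunctional enzyme and both DAHP synthase genes were thus lower than in the wild type. HOM3 gave 0.13, -0.028, 0.18 and -0.12, on both sides of 0, a difference of -0.82 ± 0.27 (SE), adjusted p 0.0455. LYS1 gave 0.53, 0.26, 0.41 and 0.016, a difference of -0.87 ± 0.23 (SE). LYS2, the reductase of the same route, gave -0.36, -0.30, -0.08 and -0.66, all below 0, a difference of -0.63 ± 0.21 (SE). ILV6 gave 0.30, -0.26, -0.10 and -0.51, on both sides of 0, a difference of -0.61 ± 0.19 (SE). SER2 (0.54 ± 0.18 (SE)) and PRO1 (0.52 ± 0.12 (SE), from 0.041, 0.066, 0.21 and 0.16) were higher.

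Of these, ARO1 kept its call in 8 of 8 alternatives and PRO1 in 6. With the replicate block, HOM3, LYS2 and SER2 lost theirs. The count was 2 with the arrays scaled to one spread, 2 without dun1rad53 replicate 1, 1 without its replicate 2, and 4 and 3 without wild-type replicate 1 and 2. Each called member but ARO1 lost its call without dun1rad53 replicate 2, with values over all alternatives from -1.17 to -0.50 for LYS1, -1.04 to -0.58 for ARO3 and for HOM3, -0.79 to -0.47 for LYS2, -0.77 to -0.45 for ILV6, -0.64 to -0.46 for ARO4, 0.40 to 0.69 for SER2 and 0.36 to 0.69 for PRO1. No slide holds both strains.

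In chk1rad53 minus wild type 2 members were called, against 14% of all genes (3.85% of the members). ARO1 gave 0.09, 0.053, 0.50 and 0.54, the replicates apart from each other and both below the wild type, and a difference from it of -0.77 ± 0.15 (SE), adjusted p 0.00136 (limma). PRO1 gave 0.11, 0.0095, 0.35 and -0.054, a difference of 0.51 ± 0.12 (SE). LYS1 gave 0.36, 0.069, 1.22 and 1.15, low in replicate 1 and within the wild-type range in replicate 2, a difference of -0.48 ± 0.23 (SE), not called (adjusted p 0.178). Replicate 1 holds the array of small spread described above. Without the 3 arrays named above ARO1 gave -0.76 (adjusted p 0.000249), PRO1 0.53 (adjusted p 0.00526) and LYS1 -0.40 (adjusted p 0.201). Without chk1rad53 replicate 2 the count was 9, all lower. ARO1 lost its call without chk1rad53 replicate 1 (-0.55, adjusted p 0.0513) and with the arrays scaled to one spread (-0.41), and PRO1 without chk1rad53 replicate 2 (0.46) or wild-type replicate 2 (0.34). No slide holds both strains.

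In tel1mec1 minus wild type 4 members were called, 1 lower and 3 higher, against 12.9% of all genes, 7.85% lower and 5.06% higher (7.69% of the members). ARO1 gave 0.35, 0.64, 0.39 and 0.37, with 1 array above the lowest wild-type array, a difference of -0.63 ± 0.15 (SE), adjusted p 0.00665 (limma). SER1 gave 0.0059, 0.49, 0.0015 and 0.27, a difference of 0.63 ± 0.20 (SE), and SER33 gave 0.44, 0.64, 0.30 and 0.55, a difference of 0.50 ± 0.14 (SE). Both lay above their wild-type mean, SER1 with no overlap of arrays and SER33 with some. PRO1 gave 0.068, 0.25, -0.012 and -0.16, overlapping the wild-type arrays, a difference of 0.44 ± 0.12 (SE). On the 1 slide that holds both strains, with 1 array each in opposite dyes, ARO1 differed by 0.031, LYS1 by -0.92, PRO1 by 0.80, SER1 by 0.80 and SER33 by 0.69, so the ARO1 difference was not seen within that slide. Without tel1mec1 replicate 1, tel1mec1 replicate 2 or wild-type replicate 1 the count was 1. All 4 calls were lost in some alternative, with values from -0.78 to -0.26 for ARO1, 0.40 to 0.86 for SER1, 0.43 to 0.58 for SER33 and 0.28 to 0.61 for PRO1.

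The direct contrasts placed these strains side by side. In mec1 minus rad53 2 members were called, against 8.74% of all genes (3.85% of the members): LYS1, 0.88 ± 0.23 (SE), adjusted p 0.0223, and ARO1, 0.74 ± 0.15 (SE), adjusted p 0.00674 (limma). In mec1 LYS1 gave 1.22, 1.34, 1.17 and 1.03 and ARO1 0.86, 1.09, 1.33 and 0.69, all above every rad53 array. Within the 2 slides that hold both strains ARO1 differed by 0.56 and 0.68 and LYS1 by 0.85 and 0.66, in the same direction. The first slide holds 2 rad53 arrays of opposite dyes and 1 mec1 array, replicate 1 with MMS in Cy5, left out above. The second holds 1 mec1 array with MMS in Cy3 and 1 rad53 array with MMS in Cy5, so dye and strain cannot be told apart there. The count was 0 without mec1 replicate 1 or rad53 replicate 2, 1 without rad53 replicate 1, and 5 with the arrays scaled to one spread. In tel1mec1 minus mec1 ARO1 alone was called, against 2.38% of all genes (1.92% of the members), with -0.56 ± 0.15 (SE), adjusted p 0.0486. Every tel1mec1 array lay below every mec1 array, and within the 1 shared slide the difference was -0.84. That slide holds 1 tel1mec1 array, with MMS in Cy3, and 2 mec1 arrays of opposite dyes. The call was lost without any 1 of the 4 replicates (values over all alternatives from -0.61 to -0.50).

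In the other 8 comparisons with the wild type limma called no member. The members with an unadjusted p under 0.05 were 2 for sml1, 5 for mec1, 2 for tel1, 0 for chk1, 4 for dun1, 10 for chk1dun1, 6 for crt1 and 1 for ste11. At that unadjusted threshold 138, 545, 283, 247, 661, 595, 473 and 113 of all 5594 genes passed, in the same order. At the adjusted threshold 0%, 1.56%, 0%, 0.0179%, 0.59%, 0.518%, 0.268% and 0% of all genes were called. The largest differences among members were SER3 in sml1 (-0.57 ± 0.23 (SE)), SER2 in mec1 (0.48 ± 0.18 (SE)), ARO2 in tel1 (0.34 ± 0.14 (SE)), LYS20 in chk1 (0.51 ± 0.29 (SE)), SER1 in dun1 (0.54 ± 0.20 (SE)), LYS20 in chk1dun1 (0.64 ± 0.29 (SE)), HOM3 in crt1 (0.54 ± 0.27 (SE)) and SER2 in ste11 (-0.36 ± 0.18 (SE)). With errors of this size, missing the threshold does not show that these strains respond as the wild type does. In chk1dun1 the members' median difference was 0.19 and in crt1 0.12, against 0.00096 and 0.017 for all genes. Without crt1 replicate 1 there was 1 call for crt1, and with single arrays and slide as a random block there were 2 for chk1dun1. Within the slide that dun1 shares with the wild type the members' median difference was -0.13 against 0.03 over all arrays; 1 of the 2 dun1 arrays on it is the one that went against its label. For sml1 it was 0.02 and 0.0089 within 2 slides against 0.02.

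The strain means of rad53, dun1rad53, chk1rad53 and tel1mec1 lay below those of all other 9 strains of the kinase set for 8 of 52 members (LYS1, LYS5, LYS14, ILV6, TRP5, ARO1, ARO3 and HOM3) and above them for 2 (HIS6 and PRO1). Of all genes, 11.7% lay below and 9.53% above in this way, so the members' counts are near the background and show nothing particular to them. For ARO1 the 4 strains ran from 0.17 to 0.44 and the other 9 from 0.81 to 1.11. For PRO1 they ran from 0.037 to 0.16, and the other 9 from -0.41 to -0.0062, with mec1, dun1 and chk1dun1 (-0.038, -0.038 and -0.0062) next to the 4.

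In each strain of the factor set more members were called than in any strain of the kinase set: 23 higher and 14 lower in hap1 (57.1% of all genes called), 21 and 15 in hap4 (55.5%), 23 and 11 in sut1 (47.2%), 24 and 16 in rcs1 (56.9%) and 21 and 14 in yap7 (55.6%). The set has a smaller error per gene than the kinase set, as given above. Each strain was compared with the mean of the other 4. LYS5 (YGL154C), which activates Lys2, was higher in hap4, the 1 call among members, against 2.38% of all genes (1.92% of the members). It gave 0.95, 0.29, 0.76 and 0.53 in hap4, a mean of 0.63 ± 0.014 (SD, n = 2), against means of 0.17 to 0.28 in the other strains. The difference was 0.40 ± 0.068 (SE), adjusted p 0.0232 (limma), and it was lost without either hap4 replicate (adjusted p up to 0.30). Some hap4 arrays overlapped those of the other strains. SER3 gave -0.0059, 0.49, -0.71 and 0.14 in hap4, on both sides of 0, a difference of -0.43 ± 0.14 (SE) that was not called (adjusted p 0.144). limma called no member for hap1, sut1, rcs1 or yap7 against the others, where 1.61%, 0.268%, 0.268% and 0.0536% of all genes were called. At an unadjusted p under 0.05 there were 6, 5, 4 and 1 of the 52 members, against 719, 855, 682 and 185 of all 5592 genes.

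Members with a paralog of the same reaction responded unequally, as a description of the strain means; whether the probes tell near-identical copies apart was not tested. LYS20 was above LYS21 in 18 of 18 strains, with a median difference of 0.57 and a range from 0.31 in tel1mec1 to 1.00 in rcs1. ARO3 was above ARO4 in 18, by a median of 0.44. LEU4 was above LEU9 in 18, by 0.46, and LEU4 was never called lower nor LEU9 higher. SER3 was above SER33 in 14 of 18 strains, by a median of 0.29, and the order turned in the other 4, tel1mec1 (-0.32), rad53, chk1rad53 and dun1rad53. ASN1 was above ASN2 in 16, by a median of 0.14. BAT1 was above BAT2 in 1 strain, ste11, and the median difference was -0.22. These orders were less regular on single arrays: LYS20 was the higher on 65 of 72, LEU4 on 69, ARO3 on 67, SER3 on 55, ASN1 on 50 and BAT1 on 16.

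**Figure D5:**
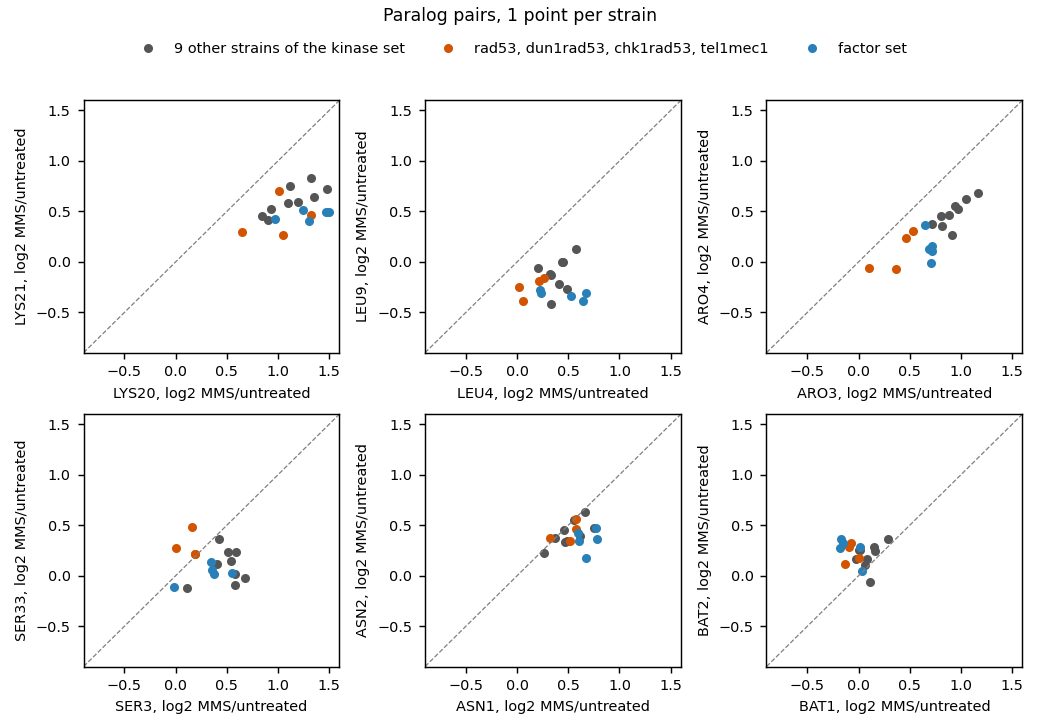
Strain means (log2 of MMS over untreated) of 6 pairs of paralogs, 1 point per strain, with the line of equal response; grey marks are 9 strains of the kinase set, orange rad53, dun1rad53, chk1rad53 and tel1mec1, blue the factor set. All points of LYS20 against LYS21, LEU4 against LEU9 and ARO3 against ARO4 lie below the line, and those of BAT1 against BAT2 lie above it in 17 strains.

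Another 28 genes of the same routes, of amino acid breakdown and of Gcn4 control were read beside the members. In the wild type 8 of them rose and 11 fell, where 26.8% of all genes were called higher and 25.4% lower. TYR1, prephenate dehydrogenase of tyrosine synthesis, rose in 18 of 18 strains (0.27 in hap4 to 0.50 in crt1), and PHA2, prephenate dehydratase of phenylalanine synthesis, in 16. Both rose also in rad53 and dun1rad53, where ARO1, ARO3, ARO4 and ARO8 were not called. Over rad53, dun1rad53, chk1rad53 and tel1mec1 the strain means of TYR1 ran from 0.33 to 0.44 and of PHA2 from 0.22 to 0.30. Those of ARO1 ran from 0.17 to 0.44, ARO3 from 0.10 to 0.53, ARO4 from -0.074 to 0.31 and ARO8 from 0.082 to 0.44. These ranges overlap, and the genes were not tested against each other. PCL5, a cyclin that targets Gcn4 for degradation, rose in 16, with 1.95, 0.98, 0.72 and 1.51 and a mean of 1.29 ± 0.25 (SD, n = 2) in the wild type. GCN1, an activator of Gcn2, fell in 14 strains and GCN2 in 9. GLT1, glutamate synthase, fell in all 18 (-1.08 in rad53 to -0.49 in crt1), as GDH1 and GLN1 did in 17. PCL5 was lower than in the wild type in tel1mec1 (-1.03 ± 0.30 (SE), adjusted p 0.0262, limma) and in dun1rad53 (-0.96 ± 0.30 (SE), adjusted p 0.0319, limma). Both calls were lost with the arrays scaled to one spread and without any 1 of the replicates. The call in tel1mec1 was also lost with single arrays and slide as a random block.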

How the data were processed

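Normalization was by limma, per the submitters' processing notes (version and settings not given in the sources used here), and the authors deposited 1 log2 ratio per probe and array, Cy5 over Cy3; base 2 is assumed, and the base and the centring are not stated. The dyes in the labels give the direction: a ratio with MMS in the Cy3 channel had its sign turned. That the deposited ratios had not been turned shows in the correlations between arrays of opposite dye of 1 strain, -0.876 to -0.174 (kinase set) and -0.847 to -0.633 (factor set). Of 6269 and 6256 probes, 5620 and 5609 carried 1 symbol and the rest none; the latter entered no test. Probes of 1 gene were averaged.

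The 2 arrays of opposite dye with the same replicate number were averaged, and each table was fitted apart in R 4.3.3, with a mean for each strain, by lmFit and eBayes of limma 3.58.1 (with statmod 1.5.0 for the slide block), with 13 and 5 residual and 6.57 and 4.80 prior degrees of freedom. The 37 contrasts were adjusted over all genes each (Benjamini-Hochberg, threshold 0.05). The fits were tested on simulated data. Replicate numbers occur in every strain, but deviations of samples with the same number correlated from -0.462 to 0.428 over 78 pairs of strains (18 over 0.1) and from -0.403 to 0.149 over 10 (2 over 0.1), so the numbers were not taken to pair samples.

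Alternatives were a block for the replicate number, arrays scaled to one spread, each replicate left out, and, in the kinase set, single arrays with slide as a random block (18 slides, correlation -0.114) and dye as a term, and leaving out 3 arrays. Slides are not named for the factor set. Background correction and a filter on dim probes could not be varied on log ratios, the number of arrays limits the precision, and promoter sequences were not analysed here. All members and neighbours may be named; those given in full are, for each pathway of a response, the called member of largest rise and of largest fall with all arrays on 1 side of 0, for a difference the called members of largest size, members called 1 way in all strains or in both directions, paralogs and GCN4; others were added where a sentence turns on them. The members, lists and rules were chosen with earlier results of these data known.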

Additional observations from a re-analysis of the deposited data

Results flagged for a closer look

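Each value here is a difference in response between strains that passed limma's test of the difference itself (adjusted p under 0.05), in log2 units, and no explanation of any of them was weighed. No strain had an array whose members' median stood apart from its other 3 by Dixon's criterion (18 strains tested).

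In rad53 minus wild type, LYS1 differed by -0.87, ARO1 by -0.81, SER3 by -0.67, TRP5 by -0.66, ARO4 by -0.60, SER2 by 0.64 and PRO1 by 0.57. In dun1rad53 minus wild type the values were -0.90 for ARO1, -0.87 for LYS1 and for ARO3, -0.82 for HOM3, -0.63 for LYS2, -0.61 for ILV6, -0.59 for ARO4, 0.54 for SER2 and 0.52 for PRO1. In chk1rad53 minus wild type ARO1 differed by -0.77 and PRO1 by 0.51, and in tel1mec1 minus wild type ARO1 by -0.63, SER1 by 0.63, SER33 by 0.50 and PRO1 by 0.44. These comparisons share the wild-type arrays.

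ARO1 differed by -0.56 in tel1mec1 minus mec1 and by 0.74 in mec1 minus rad53, where LYS1 differed by 0.88. In hap4 minus the other strains of the factor set LYS5 differed by 0.40.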

How the results depend on the processing

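Of 489 called responses of single members, none changed sign with the replicate block, the arrays scaled to one spread, the slide as a random block or the 3 arrays left out, and 14, 42, 4 (of 307) and 12 (of 307) lost their call. With 1 replicate left out 390 of 978 values lost it, and 2 changed sign: TRP3 in dun1, -0.0054 without replicate 1 and 0.756 without replicate 2, and HOM3 in chk1rad53, 1.19 without replicate 1 and -0.037 without replicate 2. Of 41 called differences, neighbours included, 6 lost their call with the block, 24 with the scaling, 1 of 39 with the slide block and 1 of 39 without the 3 arrays, and 103 of 160 values did so with 1 replicate left out; none changed sign. Where leaving out a replicate leaves 1 sample, it is assumed to vary like the other strains, and the cause of these losses beyond the fewer samples was not tested.

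With the arrays scaled to one spread the count of called members was 18 in wild type and 20 in crt1, and for differences 4 in rad53 minus wild type, 1 in tel1mec1 minus wild type, 2 in dun1rad53 minus wild type and 5 in mec1 minus rad53. With the slide as a random block it was 4 for chk1rad53 and 2 for chk1dun1, each minus wild type. With the replicate block, which the data do not bear out as a pairing, the count for tel1mec1 minus mec1 was 0, SER1 in tel1mec1 minus wild type had an adjusted p of 0.0535, HOM3, LYS2 and SER2 lost their calls in dun1rad53 minus wild type, and the other counts stayed within 1.5 times.

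With 1 replicate left out, the lowest and highest counts in responses were 16 and 18 in wild type, 13 and 21 in mec1, 15 and 20 in tel1, 6 and 7 in rad53, 14 and 15 in chk1, 9 and 18 in dun1, 2 and 10 in tel1mec1, 1 and 22 in chk1rad53, 2 and 4 in dun1rad53, 16 and 20 in chk1dun1, 16 and 19 in crt1, 14 and 23 in ste11, 24 and 25 in hap1, 20 and 26 in hap4, 22 and 24 in sut1 and 22 and 27 in yap7. For differences from wild type they were 2 and 7 in rad53, 1 and 3 in tel1mec1, 2 and 9 in chk1rad53, 1 and 4 in dun1rad53 and 0 and 1 in crt1; they were 0 and 0 for tel1mec1 minus mec1, 0 and 3 for mec1 minus rad53 and 0 and 1 for hap4 minus the others. The precision is limited by 2 replicates a strain, and signal over background was not analysed here.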

Other observations

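Genes around glycine and the supply of single-carbon units are neighbours of the serine pathway and were described only by counts above. SHM2, the cytosolic serine hydroxymethyltransferase, fell in 15 of 18 strains and had -1.87, -1.50, -0.56 and -2.16 on the arrays of the wild type, a mean of -1.52 ± 0.23 (SD, n = 2). GCV2, a subunit of the mitochondrial glycine decarboxylase, fell in 12 and had -1.31, -0.92, -1.21 and -0.99 in the wild type, a mean of -1.11 ± 0.012 (SD, n = 2). SHM1, the mitochondrial partner of SHM2, fell in all 18, while GLY1, threonine aldolase, rose in 13. CHA1, the serine and threonine deaminase, fell in 9 strains and had a wild-type mean of -0.85 ± 0.029 (SD, n = 2).

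SHM2 and CHA1 were called higher than in the wild type in all 4 of rad53, dun1rad53, chk1rad53 and tel1mec1, comparisons that share the wild-type arrays. They are singled out here for these calls. Of the 28 neighbours, 2, 3, 4 and 3 were called higher and 0, 1, 0 and 1 lower, in the order of the strains. Of all genes, 21.1%, 16.1%, 14% and 12.9% were called either way, so the neighbours' counts either way were near or below that share. Called higher were 10.3%, 7.58%, 6.31% and 5.06% of all genes, and called lower 10.9%, 8.54%, 7.72% and 7.85%. The neighbours' share called higher was below that of all genes in rad53 and above it in dun1rad53, chk1rad53 and tel1mec1. For SHM2 the differences were 1.00 ± 0.29 (SE), 0.97 ± 0.29 (SE), 1.03 ± 0.29 (SE) and 1.47 ± 0.29 (SE) in that order, and for CHA1 1.18 ± 0.30 (SE), 1.22 ± 0.30 (SE), 1.21 ± 0.30 (SE) and 1.08 ± 0.30 (SE), with adjusted p (limma) from 0.00177 to 0.0263. GCV2 was called higher in chk1rad53 (0.95 ± 0.29 (SE)) and tel1mec1 (1.02 ± 0.29 (SE)). In tel1mec1 SHM2 gave -0.005, -0.17, -0.046 and -0.0072, all near 0 and above every wild-type array, and CHA1 gave 0.011, 0.56, 0.32 and 0.024. The SHM2 call in tel1mec1 and the CHA1 call in rad53 held in 8 of 8 alternatives; the others were lost in 1 to 5 of them.

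The genes of iron-sulfur enzymes in these lists, LYS4, LEU1, ILV3 and GLT1, were called higher in no strain, and lower in 18, 6, 9 and 18 strains. They were picked out after their values were seen and were not tested as a group. The means of LEU1 ran from -0.52 in chk1rad53 to 0.28 in chk1dun1, and 31 of its 72 arrays were above 0. Those of ILV3 ran from -0.68 in rcs1 to 0.097 in crt1. Within the factor set ILV3 stood between -0.68 and -0.475, and its difference in rcs1 from the other factor strains was not called.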
